A study of Mus musculus with 6 samples.

Results

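The genes described are 41 listed genes of the cell cycle, from the cyclins and kinases that start it to the proteins that separate chromosomes, in mammary tumours of mice with and without serglycin. Of these, 39 were measured, among 22180 genes in all. A member was measured where a probe set of the array carried its symbol and no other, and its brightest probe set was used. Only Rrm2, which encodes a subunit of ribonucleotide reductase, had a second probe set. The remaining members were Ccne2, whose probe set is shared with the gene Ints8, and Ccnb1, and neither is analysed here as a gene. The measured members divide into 19 genes of G1 and S phase, called G1/S here, and 20 genes of G2 phase and mitosis, called G2/M. Every measured member had a mean above the dim level of 6.09, the 40th percentile of all probe sets.

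RNA came from snap-frozen mammary tumours of 6 mice, 3 of each genotype, with 1 Affymetrix whole-transcript array per tumour. All the mice were positive for PyMT, the polyoma virus middle T oncogene, which drives mammary tumour formation. They were SG-/-, without serglycin, or SG+/-, with 1 intact allele, and serglycin is a proteoglycan of secretory granules. No tumours of SG+/+ mice are part of the comparison, and the sources used here give neither the age of the mice nor the promoter of the transgene. Values are log2 expression levels, so a difference of 1 is a doubling, and every difference is SG-/- minus SG+/-. With 3 arrays per genotype, the number of arrays limits the precision.

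Cells pass from G1 into S phase when cyclin D with Cdk4 and cyclin E with Cdk2 release E2F factors from the retinoblastoma protein, and E2F factors then switch on the genes of DNA replication. Genes of G2 and mitosis are switched on later through Myb, FoxM1 and the MuvB complex, which binds the CHR element, often beside CCAAT boxes bound by NF-Y. The inhibitors p21, encoded by Cdkn1a, and p27, encoded by Cdkn1b, hold the cyclin-dependent kinases back. Since most cells of a tissue rest, transcripts of these genes are widely used as a measure of proliferation in tumours.

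Promoter sequences are shown for 6 members, drawn from both phases and including Cdkn1a, which had the largest, though not significant, difference between genotypes. Both phases moved together between tumours, and the part of promoter letters in the values was not tested. RefSeq promoter windows, of 250 bases before and 50 after a start site on GRCm38.p6, were held for 30 of the 39 measured members. The motifs searched on both strands were the CCAAT box (CCAAT), the CHR element (TTTGAA or TTCGAA) and the E2F site (TTTCGCGC, TTTGGCGC, TTTCCCGC or TTTGCCGC). Matches of different motifs overlapped at 1 place in the members' windows. The sequences give the 160 bases before the start, 5′ to 3′ along the gene, with matches in capitals. In Cdkn1a the capitals mark a p53 site instead. Cdk1, Cdc20 and Top2a are G2/M genes, Mcm5 and Mcm6 are G1/S genes, and Cdkn1a encodes p21.
Cdk1 (chr10:69352913-69353072, minus strand): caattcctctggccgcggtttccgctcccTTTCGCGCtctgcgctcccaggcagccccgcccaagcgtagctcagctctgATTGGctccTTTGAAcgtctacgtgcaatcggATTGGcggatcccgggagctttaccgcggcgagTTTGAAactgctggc
Cdc20 (chr4:118437344-118437503, minus strand): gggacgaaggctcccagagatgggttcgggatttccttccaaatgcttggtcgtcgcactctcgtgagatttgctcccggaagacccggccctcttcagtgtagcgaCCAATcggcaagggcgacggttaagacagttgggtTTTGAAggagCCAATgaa
Top2a (chr11:99024190-99024349, minus strand): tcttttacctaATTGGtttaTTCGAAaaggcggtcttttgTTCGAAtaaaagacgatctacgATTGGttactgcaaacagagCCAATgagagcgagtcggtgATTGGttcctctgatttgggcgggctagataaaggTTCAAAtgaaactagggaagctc
Mcm5 (chr8:75109349-75109508, plus strand): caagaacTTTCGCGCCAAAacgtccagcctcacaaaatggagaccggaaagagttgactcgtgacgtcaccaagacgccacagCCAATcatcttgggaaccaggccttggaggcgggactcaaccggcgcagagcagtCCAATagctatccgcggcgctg
Mcm6 (chr1:128359706-128359865, minus strand): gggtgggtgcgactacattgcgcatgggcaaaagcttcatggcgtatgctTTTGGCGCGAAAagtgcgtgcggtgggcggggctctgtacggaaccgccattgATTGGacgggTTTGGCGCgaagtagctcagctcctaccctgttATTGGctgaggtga
Cdkn1a (chr17:29090819-29090978, plus strand): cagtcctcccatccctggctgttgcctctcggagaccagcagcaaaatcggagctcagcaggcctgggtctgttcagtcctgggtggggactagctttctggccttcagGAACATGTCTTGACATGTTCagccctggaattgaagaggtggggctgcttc

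The phases differed in the letters of their promoters. A CHR element lay in the windows of 11 of 14 G2/M members (78.6%) and 2 of 16 G1/S members (12.5%), against 21.7% of 27025 genes with a window. An E2F site lay in 7 of 16 G1/S members (43.8%) and 1 of 14 G2/M members (7.14%), against 2.6% of all genes. The G2/M member with an E2F site was Cdk1, and the G1/S members with a CHR element were Mcm2 and Mcm7. CCAAT boxes were in 12 of 14 G2/M members (85.7%) and 9 of 16 G1/S members (56.2%), against 41.1% of all genes. A CCAAT box together with a CHR element was held by the same 11 G2/M members as the CHR element, by 2 of 16 G1/S members (12.5%) and by 8.61% of all genes. In Cdc20 the CHR element begins 18 bases before the start, between CCAAT boxes that begin 53 and 8 bases before it. In Mcm6 the E2F matches begin 110, 106 and 47 bases before the start, and those at 110 and 106 overlap on opposite strands. None of the 3 motifs was found in either window of Cdkn1a. A match is a description of letters and does not show binding, and no match says only that these letters are not in the window.

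**Figure D1:**
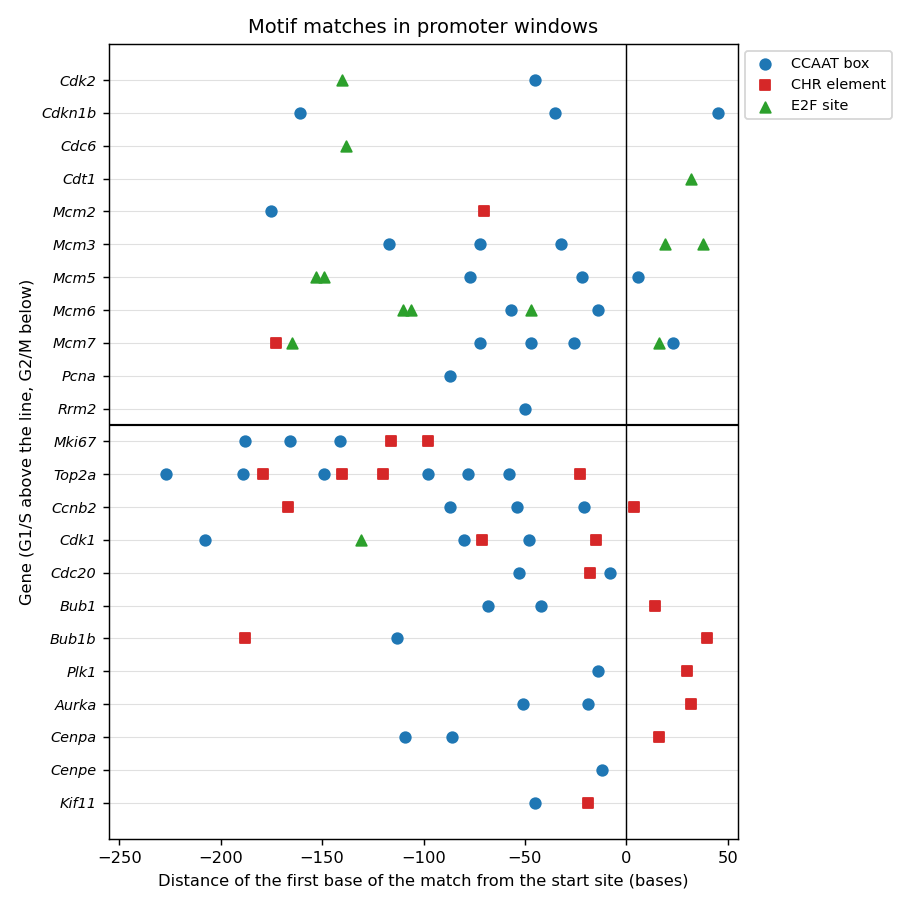
Matches of the CCAAT box, CHR element and E2F site, by distance from the start site in bases (x axis), for the 23 measured members with at least 1 match (y axis). CHR elements lie mostly in G2/M members, 11 of 14 with a window, and E2F sites mostly in G1/S members, 7 of 16 with a window.

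Before the results, the arrays themselves differed. Serglycin's gene, Srgn, lay from 6.35 to 6.76 in SG+/- tumours and from 4.89 to 5.07 in SG-/- tumours, so the labels and the targeted gene matched. SG-/- replicate 3 stood apart, with the narrowest interquartile range (2.56, against 2.85 to 3.15 in the other arrays) and the highest mean over 1394 odorant and pheromone receptor genes, a gauge of background signal (5.86, against 4.57 to 5.62). Its median over the 14861 genes above the dim level lay 0.17 below the SG+/- mean. Results are therefore given with and without this array. All 12 markers of tumour and luminal epithelium lay above the dim level. Their median, relative to the SG+/- mean of each gene, ran from -0.072 to 0.084 over the 6 tumours.

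No cell cycle gene passed the test between tumours with and without serglycin, and the medians of both phases spread further among the SG-/- tumours than between the genotypes. Mki67, the standard marker of cycling cells, differed by 0.028 between genotypes. The member with the largest difference was Cdkn1a, which encodes the inhibitor p21, and its highest SG-/- value lay under its lowest SG+/- value. Most other members were lowest in a single tumour, SG-/- replicate 3, and close to or above the SG+/- mean in the other SG-/- tumours.

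By limma with Benjamini-Hochberg adjustment over all genes, 0 of 39 members passed an adjusted p of 0.05, and 0 of 22180 genes (0%) did. At an unadjusted limma p of 0.05, 1 member was lower and 0 were higher, against 0.685% of all genes lower and 1.43% higher. The genotypes did not overlap in 1 member, Cdkn1a, against 3.19% of all genes with SG-/- lower and 2.84% with SG-/- higher. Against these shares, a single gene of 39 is no result about the members as a group. Of the members, 11 were higher and 28 lower in SG-/- tumours, while 46.3% of all genes and 42.2% of genes above the dim level were higher. Without SG-/- replicate 3 the count turned, with 33 members higher and 6 lower, against 47.5% of all genes and 57.3% of genes above the dim level higher. At an unadjusted limma p of 0.05 there was then 1 member lower, Cdkn1a, and 0 higher, against 1.5% of all genes lower and 3.91% higher. Dropping SG+/- replicate 1, 2 or 3 instead left 5, 20 or 7 members higher, and dropping SG-/- replicate 1 or 2 left 4 or 2. The count was 17 after a further quantile normalization and 31 with array weights.

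The median difference was -0.078 over the G1/S members and -0.046 over the G2/M members, beside -0.014 over all genes and -0.029 over genes above the dim level. Without SG-/- replicate 3 these medians were 0.094 and 0.090, beside -0.010 and 0.029. After quantile normalization they were -0.036 and 0.0079, and with array weights 0.096 and 0.10. The standard error of a member's difference ran from 0.12 to 0.27. Each member's 95% confidence interval, not adjusted for the number of genes, lay between -0.90 and 0.55, and 38 of the 39 held 0. A change of 1 or more on the log2 scale was thus outside the interval of every member, while changes smaller than the intervals were not detectable with 3 arrays per genotype. Nothing in the labels says how the tumours were sampled from each mouse, so the p-values measure the spread between these tumours only.

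**Figure D2:**
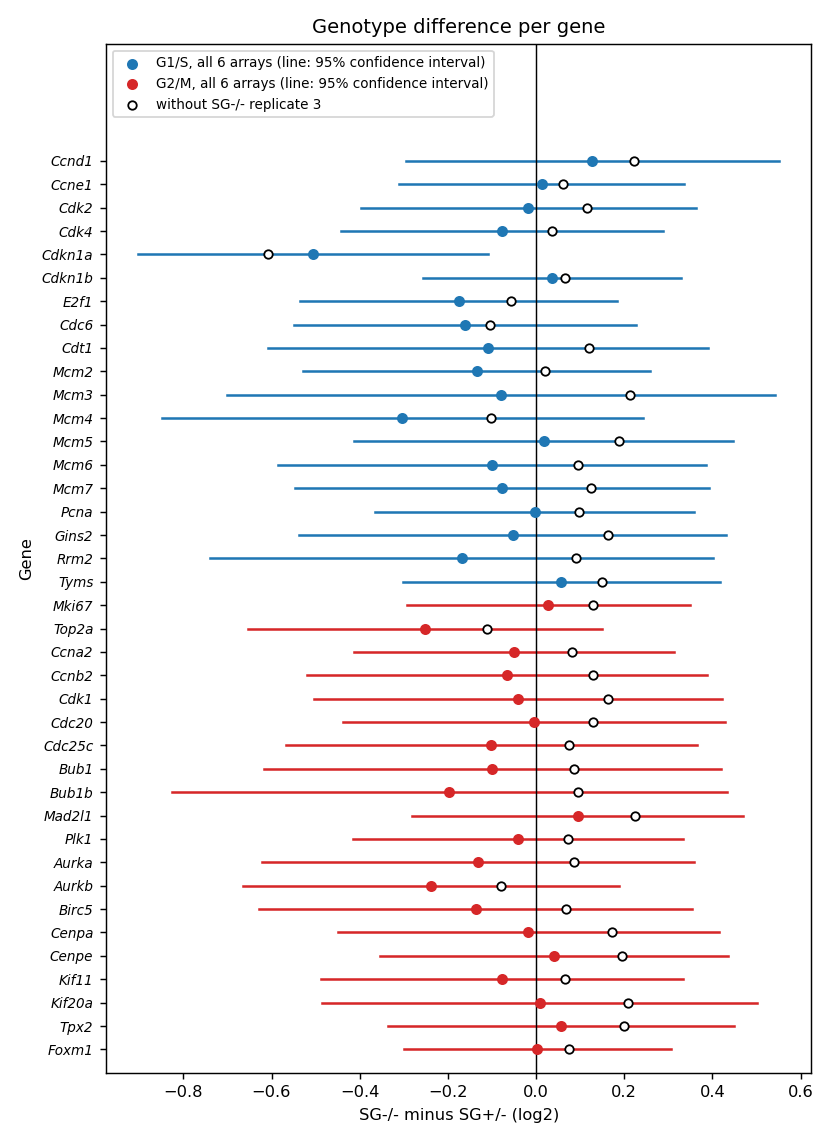
Difference between genotypes on the log2 scale (x axis) for each of 39 genes (y axis), with filled points and 95% confidence intervals for all 6 arrays and open points without SG-/- replicate 3. Only the interval of Cdkn1a excludes 0. Without SG-/- replicate 3, 33 genes lie to the right of 0, against 11 with all 6 arrays.

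The G1/S genes begin with the cyclins and kinases of the G1 phase. Ccnd1 encodes cyclin D1, which couples growth signals to the cycle. It stood at 11.19, 11.17 and 11.65 in SG+/- replicates 1 to 3, and the SG-/- replicates stood at 11.48, 11.64 and 11.28, a difference of 0.13 (standard error 0.18). SG+/- replicate 3 and SG-/- replicate 2 were the highest, and the genotypes overlapped. Its partner Cdk4 read 11.55, 11.82 and 11.71 in the SG+/- tumours and 11.68, 11.78 and 11.39 in the SG-/- tumours, and differed by -0.078 (standard error 0.15). For Ccne1, cyclin E1, which drives entry into S phase, the SG+/- values were 7.37, 7.69 and 7.46 and the SG-/- values 7.58, 7.56 and 7.42, a difference of 0.013. Cdk2, the kinase bound by cyclins E and A, was at 8.93, 9.02 and 8.79 in SG+/- and 8.97, 9.10 and 8.63 in SG-/- tumours and differed by -0.017. Cdk4 and Cdk2 were lowest in SG-/- replicate 3, whereas Ccnd1 was lowest in SG+/- replicate 2 and Ccne1 in SG+/- replicate 1. E2f1, the activator of replication genes, stood at 7.75, 7.99 and 7.90 in SG+/- and at 7.85, 7.80 and 7.47 in SG-/- tumours, with a difference of -0.18 (standard error 0.15). With SG-/- replicate 3 left out, the E2f1 difference was -0.057, Cdk4 differed by 0.037 and Cdk2 by 0.12. In all 5 genes the genotypes overlapped and the adjusted limma p was 1.00.

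The inhibitors did not move alike. Cdkn1a was at 10.39, 10.49 and 10.62 in SG+/- replicates 1 to 3, and at 9.70, 10.10 and 10.20 in the SG-/- replicates. SG-/- replicate 1 was the lowest, and the highest SG-/- tumour lay below the lowest SG+/- tumour. SG+/- tumours averaged 10.50 ± 0.12 and SG-/- tumours 9.997 ± 0.27 (SD, n = 3 per genotype). Levels were thus 1.42-fold lower, a difference of -0.51 (standard error 0.17, 95% interval -0.90 to -0.11). Its unadjusted limma p was 0.0197, rank 180 of 22180 genes, and its adjusted limma p was 1.00, so it did not pass. A two-sided exact permutation test gave p = 0.1, and 3 against 3 values cannot give less. Leaving out each array in turn gave differences from -0.61 to -0.35, with the size smallest when SG-/- replicate 1 was left out and largest when SG-/- replicate 3 was. Over all settings tried the adjusted limma p of Cdkn1a ran from 0.273 to 1.00. Cdkn1b stood at 9.79, 9.80 and 9.91 in SG+/- and at 9.80, 9.99 and 9.81 in SG-/- tumours, a difference of 0.037 (standard error 0.12), and its genotypes overlapped. It varied least of the 39 members, by 0.20 between the lowest and highest tumour.

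**Figure D3:**
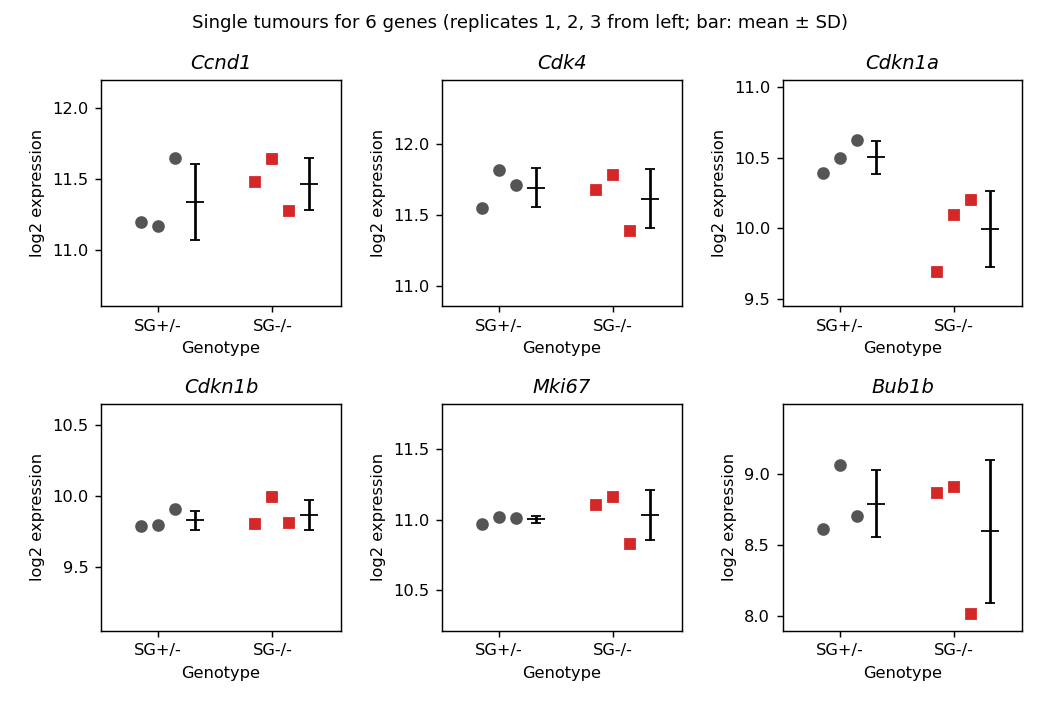
Expression on the log2 scale (y axes, each spanning the same width) in single tumours of each genotype (x axes) for cyclin D1, Cdk4, both inhibitors, Mki67 and Bub1b. Points are tumours and bars give the mean ± SD of 3. Only in Cdkn1a do the genotypes separate, and in Bub1b SG-/- replicate 3 lies far below the other tumours.

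Cdkn1a is a well-known target of p53. The p53 consensus, a 20-base site of adjacent 10-base repeats, was searched with at most 1 base off the consensus, a search added after the data were seen. A match begins 51 bases before the upstream of 2 RefSeq starts of Cdkn1a, which lie 2790 bases apart, and such a match was in the windows of 22 of 27025 genes (0.0814%). Of the other p53 target genes listed, 18 were measured, with 5 higher (27.8%) and 13 lower in SG-/- tumours. By comparison, 28.2% of the cell cycle members, 46.3% of all genes and 42.2% of genes above the dim level were higher. SG-/- replicate 3 was lowest in 9 of the 18 targets. The median difference of the targets was -0.10, beside -0.067 over the members and -0.014 over all genes. None passed in limma over all 6 arrays, adjusted (0 of 18) or at an unadjusted p of 0.05 (0 of 18). The genotypes did not overlap with SG-/- lower in 2, beside 3.19% of all genes, and with SG-/- higher in 0, beside 2.84%. These were Zmat3, an RNA-binding protein, and Ccng1, which encodes cyclin G1. Ccng1 was also the only listed target, of 14 with a window, with a p53 match, 195 bases before its start, and it is named after its values were seen. Its values were 11.87, 12.09 and 11.93 in SG+/- and 11.72, 11.62 and 11.77 in SG-/- tumours, a difference of -0.26 (standard error 0.13). Zmat3 was at 8.44, 8.73 and 8.66 in SG+/- and 8.40, 8.27 and 8.18 in SG-/- tumours, and differed by -0.32 (standard error 0.14). Trp53inp1, a stress-response gene, had the largest difference of the list, -0.55 (standard error 0.25), with overlapping genotypes. Over the arrays other than SG-/- replicate 3 the list had 6 higher and 12 lower, with a median of -0.030. Of all genes above the dim level, 57.3% were then higher. Trp53inp1 differed by -0.81 without that array. At an unadjusted limma p of 0.05, Trp53inp1 and Ccng1 (-0.29) were then lower, 2 of 18 beside 1.5% of all genes, and 0 passed adjusted. Whether p53 has a part in the values of Cdkn1a or of these targets was not tested.

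Replication genes of the G1/S group, all but Tyms, had their lowest value in SG-/- replicate 3. Cdc6 and Cdt1 load the MCM helicase onto origins, Mcm2 to Mcm7 form it, and Gins2 belongs to the complex that activates it. Mcm4 had the second largest difference of the G1/S members, -0.30 (standard error 0.23), from 9.63, 10.16 and 9.61 in SG+/- to 9.67, 9.72 and 9.10 in SG-/- tumours. Here SG+/- replicate 2 was highest and SG-/- replicate 3 lowest, and without SG-/- replicate 3 the difference was -0.10. Mcm3 stood at 7.96, 8.04 and 7.68 in SG+/- and at 8.20, 8.02 and 7.23 in SG-/- tumours and differed by -0.080. Its SG-/- values hold both the highest and the lowest of the 6 tumours, and without SG-/- replicate 3 it was 0.21 higher. Mcm5 and Mcm6, whose promoters are shown above, differed by 0.017 and -0.10. Mcm5 read 9.32, 9.58 and 9.38 in SG+/- and 9.67, 9.57 and 9.10 in SG-/- tumours, and Mcm6 9.27, 9.66 and 9.60 and 9.60, 9.61 and 9.02. In both, SG-/- replicates 1 and 2 lay within or above the SG+/- range and SG-/- replicate 3 below it. Mcm2 ranged from 8.58 to 9.10 over the tumours and Mcm7 from 8.69 to 9.34, with differences of -0.13 and -0.077. All 6 MCM genes were lowest in SG-/- replicate 3.

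The loading factors Cdc6 and Cdt1 differed by -0.16 and -0.11. Cdc6 was the only member highest in SG+/- replicate 1, at 7.82, and ranged down to 7.27 in SG-/- replicate 3. Cdt1 ranged from 7.57 to 8.26 and Gins2 from 8.03 to 8.73, and Gins2 differed by -0.053. Pcna, the sliding clamp of DNA polymerases, ranged from 10.96 to 11.35 and differed by -0.0034. Enzymes of nucleotide supply were Rrm2 and Tyms, which encodes thymidylate synthase. Rrm2 differed by -0.17 (standard error 0.24), with 8.41, 8.77 and 8.62 in SG+/- and 8.79, 8.59 and 7.91 in SG-/- tumours, and its lowest value was again that of SG-/- replicate 3. Tyms ranged from 8.82 to 9.24 and was 0.058 higher, with its lowest value in SG+/- replicate 3. Over the arrays other than SG-/- replicate 3, Cdc6 differed by -0.10, Cdt1 by 0.12, Gins2 by 0.16, Pcna by 0.10, Rrm2 by 0.090 and Tyms by 0.15. Every replication gene overlapped between genotypes and had an adjusted limma p of 1.00.

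Among the G2/M genes, the general markers of proliferation are Mki67, the Ki-67 protein that coats mitotic chromosomes, and Top2a, the topoisomerase that untangles them. Mki67 was at 10.97, 11.02 and 11.01 in SG+/- and at 11.10, 11.16 and 10.83 in SG-/- tumours, means of 11.00 ± 0.028 and 11.03 ± 0.18 (SD, n = 3 each). Its 95% confidence interval ran from -0.29 to 0.35. Top2a had the largest difference of the G2/M members, -0.25 (standard error 0.17), with 10.08, 10.22 and 9.87 in SG+/- and 9.93, 9.96 and 9.53 in SG-/- tumours. SG-/- replicates 1 and 2 lay inside the SG+/- range of Top2a, and without SG-/- replicate 3 it differed by -0.11. Foxm1, a transcription factor of mitotic genes, varied little, with 8.08, 8.21 and 8.11 in SG+/- and 8.16, 8.26 and 7.996 in SG-/- tumours and a difference of 0.0029. SG-/- replicate 3 held the lowest value of all 3 genes.

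The engine of mitosis is Cdk1 with cyclins A and B. Cdk1 stood at 10.34, 10.48 and 10.42 in SG+/- and at 10.66, 10.49 and 9.96 in SG-/- tumours and differed by -0.041 (standard error 0.20). SG-/- replicate 1 was the highest tumour and SG-/- replicate 3 the lowest, so the SG-/- tumours spanned the SG+/- range on both sides. Ccna2, cyclin A2, was at 10.32, 10.49 and 10.39 in SG+/- and 10.49, 10.48 and 10.09 in SG-/- tumours, and Ccnb2, cyclin B2, at 9.95, 10.20 and 10.08 and 10.22, 10.19 and 9.62. They differed by -0.050 and -0.067. Cdc25c, the phosphatase that activates Cdk1, ranged from 7.37 to 8.07 and differed by -0.10. Cdc20, which targets cyclin B for destruction at the end of mitosis, ranged from 9.32 to 9.83 and differed by -0.0046. With SG-/- replicate 3 left out, all 5 genes were higher in SG-/- tumours, by 0.16 for Cdk1, 0.081 for Ccna2, 0.13 for Ccnb2, 0.075 for Cdc25c and 0.13 for Cdc20.

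Among mitotic kinases and the spindle checkpoint, Bub1b had the widest spread of the G2/M members. It encodes the checkpoint protein BubR1 and stood at 8.61, 9.06 and 8.70 in SG+/- and at 8.86, 8.91 and 8.01 in SG-/- tumours, and its value in SG-/- replicate 3 lay 0.81 below the mean of the other 5. It differed by -0.20 (standard error 0.27), and by 0.094 without that array. Bub1, a checkpoint kinase, was at 8.52, 9.00 and 8.53 in SG+/- and 8.66, 8.88 and 8.22 in SG-/- tumours and differed by -0.10. Mad2l1, which encodes the checkpoint protein Mad2, ranged from 9.12 to 9.55 and had the largest difference upward of the G2/M members, 0.095 (standard error 0.16). For Aurkb, the Aurora kinase of the chromosome passenger complex, the values were 9.57, 9.83 and 9.55 in SG+/- and 9.50, 9.64 and 9.09 in SG-/- tumours, a difference of -0.24 (standard error 0.18). Its complex partner Birc5, survivin, ranged from 7.08 to 7.80 and differed by -0.14. Aurka, the Aurora kinase of spindle poles, read 8.50, 8.78 and 8.65 in SG+/- and 8.73, 8.73 and 8.08 in SG-/- tumours, a difference of -0.13. Plk1, a kinase of mitotic entry, was at 9.28, 9.58 and 9.52 in SG+/- and 9.60, 9.47 and 9.19 in SG-/- tumours and differed by -0.041. Leaving out SG-/- replicate 3 gave 0.086 for Bub1, 0.22 for Mad2l1, -0.079 for Aurkb, 0.069 for Birc5, 0.085 for Aurka and 0.072 for Plk1.

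Genes of the kinetochore and spindle motors differed by less than 0.1 between genotypes. Cenpa, the histone variant of centromeres, ranged from 8.53 to 9.14 and differed by -0.017, and the kinetochore motor Cenpe ranged from 8.16 to 8.66 and differed by 0.040. Kif11, the motor that pushes spindle poles apart, ranged from 9.39 to 9.96 with a difference of -0.078. Kif20a, a kinesin of cell division, ranged from 8.26 to 8.89 with a difference of 0.0084, and Tpx2, an activator of Aurora A, from 8.52 to 8.97 with 0.056. All 5 were lowest in SG-/- replicate 3. Without that array they differed by 0.17, 0.19, 0.067, 0.21 and 0.20, in the order named. All 20 G2/M members overlapped between genotypes, with an adjusted limma p of 1.00 for each.

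Read by tumour instead of by genotype, the members moved together. SG-/- replicate 3 held the lowest of the 6 values in all 20 G2/M members and in 14 of 19 G1/S members, against 34.3% of all genes and 48.7% of genes above the dim level. The 5 exceptions were Ccnd1, Ccne1, Cdkn1a, Cdkn1b and Tyms. SG+/- replicate 2 held the highest value in 17 members and SG-/- replicate 1 in 14. Relative to the SG+/- mean of each gene, the SG+/- tumours, in replicate order, had G2/M medians of -0.096, 0.13 and -0.031, and the SG-/- tumours 0.13, 0.10 and -0.39. The G1/S median was -0.10, 0.12 and -0.046 in the SG+/- tumours and 0.075, 0.11 and -0.33 in the SG-/- tumours. Both phases thus ranked the tumours almost alike, and the G2/M median minus the G1/S median stayed between -0.067 and 0.059. The numbers in the sample titles run consecutively over SG-/- replicates 1 and 2 and SG+/- replicate 2. They run again, at higher numbers, over the other tumours. Medians of both phases lay above the SG+/- mean in the former tumours and below it in the latter. The labels do not say what these numbers stand for, the genotypes are unevenly spread over them, and their part was not tested. In SG-/- replicate 3 all 39 members lay below the SG+/- mean. Relative to the median of genes above the dim level in the same array, G2/M members lay 0.22 lower in SG-/- replicate 3 and 0.14 lower in SG+/- replicate 1, and higher by 0.087 to 0.15 in SG-/- replicates 1 and 2 and SG+/- replicate 2. Set against their own array, a tumour of each genotype was therefore low. A bulk sample cannot tell fewer cycling cells from less transcript per cell. SG-/- replicate 3 also had the narrowest interquartile range (2.56) and the highest receptor mean (5.86) of the 6 arrays. The part of these array traits in its low cell cycle values was not tested.

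**Figure D4:**
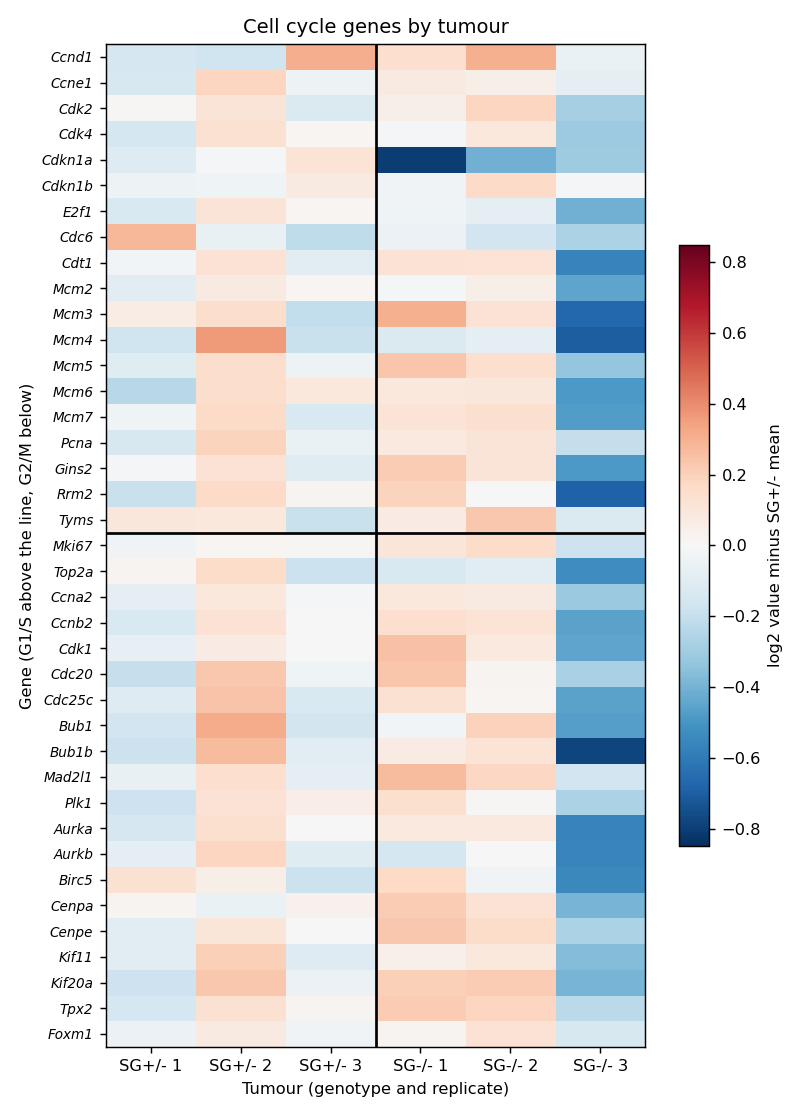
Log2 value minus the SG+/- mean of the gene (colour) in each of 6 tumours (x axis) for 39 genes (y axis), with G1/S genes above the line and G2/M genes below. SG-/- replicate 3 is below the SG+/- mean in all 39 genes, and Cdkn1a alone has every SG-/- tumour below every SG+/- tumour.

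Other genes of the pathway are described by counts, with no test of the lists. Of 35 measured further genes of replication and S phase, 5 were higher and 30 lower in SG-/- tumours, and the median was -0.13. When SG-/- replicate 3 was left out, 26 of the 35 were higher, with a median of 0.033. Of all genes above the dim level, 57.3% were then higher, with a median of 0.029. Chaf1a, a histone chaperone of replication, and Uhrf1, which maintains DNA methylation, had the largest differences, -0.32 (standard error 0.22) and -0.32 (standard error 0.20). Both were -0.15 when SG-/- replicate 3 was left out. Of 42 further mitosis genes, 13 were higher and 29 lower, with a median of -0.060, and without SG-/- replicate 3, 35 were higher, with a median of 0.12. The largest differences here were in Cks1b, a subunit of Cdk complexes, -0.25 (standard error 0.21), and Spc24, a kinetochore protein, -0.25 (standard error 0.26), or -0.068 and 0.014 without that array. SG-/- replicate 3 was lowest in 33 of the 35 and in 37 of the 42. In limma over all 6 arrays 0 of these 77 genes passed, adjusted or at an unadjusted p of 0.05. With SG-/- replicate 3 left out, 0 passed adjusted, and at an unadjusted limma p of 0.05 there were 5 mitosis genes higher, 0 lower and no replication gene, beside 3.91% of all genes higher. They were Anln, Nuf2, Spc25, Cdca3 and Cdkn3, named after their values were seen, with differences from 0.28 to 0.50 and adjusted limma p from 0.677 to 0.900. The genotypes did not overlap with SG-/- lower in 2 of the 77, beside 3.19% of all genes. These were Mcm10, a replication factor, and Smc4, a condensin subunit, which differed by -0.23 and -0.15, or -0.070 and -0.053 without SG-/- replicate 3.

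Regulators around the retinoblastoma protein and E2F factors, both drivers and brakes of the cycle, were measured for 32 genes. Of these, 13 were higher and 19 lower, with a median of -0.020. None passed in limma over all 6 arrays (0 adjusted and 0 at an unadjusted p of 0.05). Cdk6, the relative of Cdk4, had the largest difference, 0.52 (standard error 0.32). It stood at 8.89, 8.40 and 9.24 in SG+/- and at 9.66, 9.67 and 8.74 in SG-/- tumours, where replicates 1 and 2 lay above all SG+/- tumours and replicate 3 did not. Cdkn2b, which encodes the Cdk4 and Cdk6 inhibitor p15, was 0.44 higher (standard error 0.20), with 7.58, 7.91 and 8.17 in SG+/- and 8.62, 8.11 and 8.25 in SG-/- tumours. SG-/- replicate 2 lay just below SG+/- replicate 3, so the genotypes overlapped. Leaving out SG-/- replicate 3, Cdk6 was 0.82 and Cdkn2b 0.48 higher, and 25 of the 32 genes were higher, with a median of 0.11. Of all genes above the dim level, 57.3% were then higher, with a median of 0.029. At an unadjusted limma p of 0.05, 2 of the 32 were then higher, beside 3.91% of all genes higher, and 0 passed adjusted. These were Cdk6 and Rbl1 (p107, a relative of the retinoblastoma protein, 0.29), named after their values were seen.

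**Figure D5:**
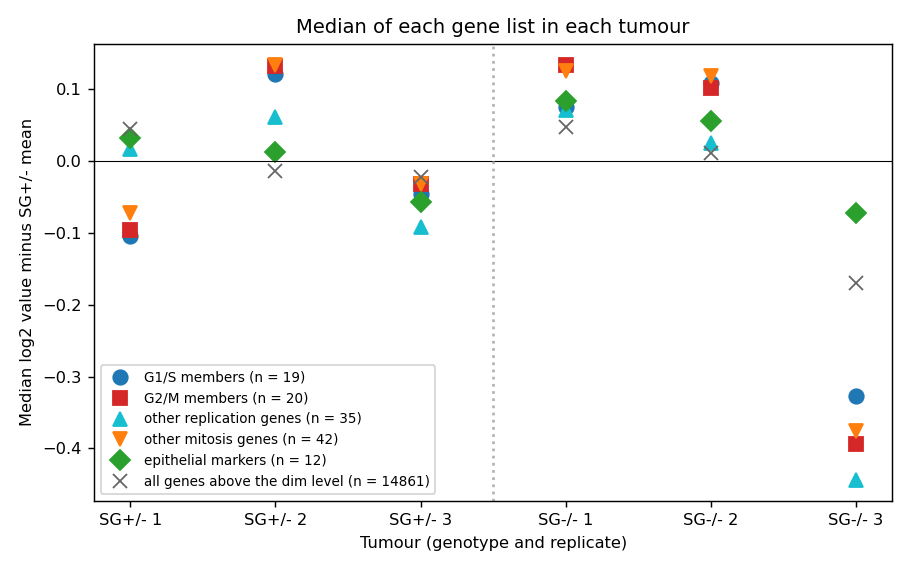
Median over each gene list of the log2 value minus the SG+/- mean (y axis) in each tumour (x axis), for members, other cell cycle genes, epithelial markers and all genes above the dim level. All 4 cell cycle lists are lowest in SG-/- replicate 3, from -0.44 to -0.33, where epithelial markers are at -0.072 and all genes above the dim level at -0.17.

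Markers of other cell types also differed between the tumours. Fibroblast markers, 10 of 10 measured, had medians of 1.12, 0.035 and 0.42 in the SG-/- tumours, in replicate order. The SG+/- tumours had 0.073, 0.22 and -0.21, so the genotypes overlapped. Leukocyte markers, 11 of 12 measured, had medians of 0.75, 0.34 and 0.14 in SG-/- tumours, against up to 0.12 in SG+/- tumours. Summed linear levels of fibroblast and leukocyte markers were 11126 to 20578 and 2580 to 4035 in SG-/- and 7275 to 10591 and 2259 to 2594 in SG+/- tumours. Endothelial markers, 10 of 10, had medians of 0.56, 0.47 and 0.10 in SG-/- replicates 1 to 3 and -0.13 to 0.11 in SG+/- tumours, so the genotypes overlapped, with sums of 2849 to 3989 against 2357 to 2828. The B cell markers Cd79a and Ms4a1 had means below the dim level of 6.09. In SG-/- replicate 3 they stood at 6.35 and 6.43, against at most 5.55 and 4.99 in the other tumours. SG-/- replicate 1, highest in both fibroblast and leukocyte markers, was also among the highest tumours in G2/M members and the lowest in Cdkn1a. SG-/- replicate 3 had the highest medians of adipocyte markers (0.51, 7 of 8 measured) and skeletal muscle markers (0.57, 8 of 8 measured). The next highest were 0.34 in SG-/- replicate 1 for adipocyte and 0.44 in SG+/- replicate 3 for muscle markers. Adipocyte sums were 801 to 1470 in SG-/- and 650 to 977 in SG+/- tumours, with the means of Adipoq and Lep below the dim level. Muscle sums were 659 to 1850 and 707 to 1663, with Mylpf below it. Whether these tissues have a part in the low cell cycle values of SG-/- replicate 3 was not tested. Salivary gland markers, 12 of 13 measured, summed to 7468 to 25908 in SG-/- and 6841 to 13330 in SG+/- tumours, and their medians were 1.84 and 1.78 in SG-/- replicates 1 and 3. The G2/M medians of these arrays were 0.13 and -0.39, or 0.087 and -0.22 relative to genes above the dim level in the same array. The part of salivary tissue in the cell cycle values was not tested.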

How the data were processed

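The authors deposited log2 expression values per probe set, made with the robust multi-array average (RMA), per the labels. Expression Console of Affymetrix and limma also appear among the tools in the submitters' processing notes, without versions. Of 33793 probe sets, 23521 had 1 gene symbol in the platform annotation, 1814 had several and 8458 were not in it. The brightest probe set of each gene was kept (22180 genes), with symbols updated through RefSeq of GRCm38.p6 for the 23328 probe sets whose gene ID matched. Genotypes were compared as independent groups of 3 with limma 3.58.1 under R 4.3.3 and Benjamini-Hochberg adjustment over all genes at 0.05. No filter on dim genes was used. The test was checked on simulated data with the same spread for every gene and no outlying array. That spread was set below the root mean square spread of the genes over the SG+/- arrays. That check required only that known mean differences came back. It does not show how well changes are detected in these tumours.

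The members and lists were chosen with earlier results of these data known. All members are named, and of each further list the 2 genes with the largest difference. Alternatives were a filter on dim genes, quantile normalization again, centring, eBayes with trend and robust settings, array weights, the mean of probe sets, all probe sets, the receptor mean as covariate, an unadjusted threshold and leaving out each array. Plots used matplotlib 3.10.9.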

Additional observations from a re-analysis of the deposited data

How the results depend on the processing

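The count of members past an adjusted limma p of 0.05 was 0 in all 14 other settings, and the smallest adjusted p of any member was 0.273, for Cdkn1a with array weights. Cdkn1a stayed lower in every setting. Only 8 of 39 members kept their sign throughout: Aurkb, Ccnd1, Cdc6, Cdkn1a, E2f1, Mad2l1, Mcm4 and Top2a. Over all genes 1 passed with the receptor mean as a covariate, and leaving out each array gave 0 to 1, the 1 without SG-/- replicate 2. At an unadjusted p of 0.05, 469 genes and 1 member passed. The number of members higher in SG-/- tumours was 17 after a further quantile normalization and 31 with array weights, which gave SG-/- replicate 3 a weight of 0.197 and SG-/- replicate 2 one of 4.95 (the others 0.730 to 1.99), and from 2 to 33 with an array left out. The G1/S median difference was then -0.19 to 0.094 and the G2/M median -0.14 to 0.090. With array weights these medians were 0.096 and 0.10, and after quantile normalization the G2/M median was 0.0079. Signs turned with array weights for Cdk2 0.19, Cdk4 0.054, Cdt1 0.13, Mcm2 0.019, Mcm3 0.20, Mcm6 0.045, Mcm7 0.16, Pcna 0.12, Gins2 0.15, Ccna2 0.069, Ccnb2 0.10, Cdk1 0.088, Cdc20 0.058, Cdc25c 0.068, Bub1 0.19, Bub1b 0.11, Aurka 0.062, Birc5 0.049, Cenpa 0.11 and Kif11 0.11, after quantile normalization for Ccne1 -0.017, Cdk2 0.021, Pcna 0.030, Ccna2 0.0067, Cdk1 0.017, Cdc20 0.047, Plk1 0.0092 and Cenpa 0.027, and after centring for Pcna 0.0035 and Cdc20 0.0023. With an array left out, some differences turned. Their ranges in G1/S genes included Ccne1 -0.054 to 0.10, Cdk2 -0.12 to 0.12, Cdk4 -0.16 to 0.037, Cdkn1b -0.025 to 0.076, Cdt1 -0.23 to 0.12, Mcm2 -0.23 to 0.021, Mcm3 -0.27 to 0.21, Mcm5 -0.093 to 0.19, Mcm6 -0.22 to 0.094, Mcm7 -0.18 to 0.12. Further ranges were Pcna -0.070 to 0.10, Gins2 -0.19 to 0.16, Rrm2 -0.35 to 0.090, Tyms -0.036 to 0.15, Mki67 -0.036 to 0.13, Ccna2 -0.12 to 0.081, Ccnb2 -0.17 to 0.13, Cdk1 -0.19 to 0.16, Cdc20 -0.13 to 0.13, Cdc25c -0.22 to 0.075. The remaining ranges were Bub1 -0.25 to 0.086, Bub1b -0.35 to 0.094, Plk1 -0.13 to 0.072, Aurka -0.24 to 0.085, Birc5 -0.29 to 0.069, Cenpa -0.13 to 0.17, Cenpe -0.055 to 0.19, Kif11 -0.16 to 0.067, Kif20a -0.10 to 0.21, Tpx2 -0.022 to 0.20 and Foxm1 -0.057 to 0.074. No paired analysis was possible because the labels number no replicates across genotypes. The number of arrays limits what could be detected.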

Other observations

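Some probe sets touch the members without naming a single gene. The probe set shared by Ccne2, which encodes cyclin E2, and Ints8, a subunit of the Integrator complex, read 8.18, 8.45 and 8.38 in the SG+/- tumours, in replicate order, against 8.49, 8.57 and 8.12 for SG-/-. It was lowest in SG-/- replicate 3, as most members were. The Mcm7 gene hosts a cluster of microRNA genes in an intron. The probe set for Mir106b, a microRNA of this cluster, read 6.34, 5.65 and 6.15 in SG+/- and 6.02, 5.94 and 6.63 in SG-/- tumours. It lay below the dim level of 6.09 in 3 of the 6 tumours and was highest in SG-/- replicate 3, the array with the highest mean over receptor genes (5.86). The probe set shared by Mir25 and Mcm7 read 7.10, 6.74 and 6.78 in SG+/- and 6.99, 6.90 and 6.39 in SG-/- tumours, lowest in SG-/- replicate 3. The probe set shared by Mir93 and Mcm7 read 5.01, 4.91 and 5.02 and 5.12, 5.17 and 5.36, below the dim level in every tumour and also highest in SG-/- replicate 3. These values are descriptions of probe sets, and which transcript each one reads was not tested.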
